A study of Homo sapiens with 16 samples.

Results

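Gene deserts are long stretches of a chromosome without protein-coding genes. Open chromatin inside a desert usually belongs to distant enhancers, to noncoding genes or to repeated sequence. Deserts next to developmental regulators are known to hold enhancers that act over long distances, and the deserts around centromeres consist largely of satellite repeats. The regions described here are stretches of open chromatin on chromosomes 1 to 22 that lie outside every protein-coding gene and at least 500 kb from the nearest end of such a gene. They came from merging the peaks of 4 treatment lists wherever peaks overlapped by at least 1 bp, which gave 179645 regions, of which 9346 lay in deserts and 170299 elsewhere. Of the desert regions, 5440 lay in the 22 deserts that contain a centromere, called centromeric deserts below, and 3906 lay in 281 other deserts, called arm deserts.

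The samples were U87 cells, an established human glioblastoma line, profiled by NicE-seq, in which an enzyme nicks accessible DNA and a polymerase adds biotinylated nucleotides at the nicks, so that open DNA can be captured and sequenced. The 16 libraries form 4 groups of 4. These are AsiDNA with belinostat (the combination), belinostat, AsiDNA, and vehicle (DMSO). Belinostat, an inhibitor of histone deacetylases, was given at 1 µM for 24 h. Histone deacetylases remove acetyl groups from histones, and acetylated histones mark active enhancers and promoters. AsiDNA is a short double-stranded DNA that imitates a broken DNA end and engages repair proteins. The labels give no AsiDNA dose. Their sample fields say U87 and their protocols MTU87 and LTAU87, and the form of exposure to AsiDNA remains unclear. The sample fields give all groups 1 cell line, but whether MTU87 and LTAU87 cells divide the groups is not settled. If they divide the groups by AsiDNA, that difference cannot be told apart from AsiDNA itself. The labels do not say whether the libraries of a group came from separate cultures.

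Each group has 1 deposited peak list for its 4 libraries. No spread between replicates can therefore be given, no test between treatments was possible, and values in parentheses after a share or a ratio are its 95% interval by Wilson's method, for counting error alone. Neighbouring regions in 1 desert also share their sequence context, so even this error is understated. Read depth is unknown, and a longer list can come from more reads as well as from more open chromatin. On chromosomes 1 to 22 the lists held 131745 peaks for the combination, 135780 for belinostat, 135239 for AsiDNA and 127514 for vehicle. As a check of the labelled cell type, 8 of 9 glioblastoma-line markers had a peak at a gene end in all lists and GFAP had none, while 7 of 13 markers of neurons, endothelium, immune cells and epithelium had no peak in any list and 4 of them (SNAP25, SYT1, CD3E and KRT8) had one in all lists.

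No genome sequence was used, so the desert regions themselves cannot be printed. Sequences of RefSeq promoter windows (GRCh38.p14, the build of the files, 300 bases around the start of a gene) can be printed for noncoding genes that start inside a desert. The table of promoters held 641 such windows, of which 47, belonging to 40 genes, were overlapped by 39 desert regions. The 4 windows below show the strongest region at a promoter, a promoter rich in CpG, 1 promoter open only without belinostat and 1 open with belinostat alone. Capitals mark the letters TGANTCA, the core of the site bound by AP-1 factors, which reads the same on both strands.

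LOC124900845 promoter, chr4:32140729-32141028, minus strand: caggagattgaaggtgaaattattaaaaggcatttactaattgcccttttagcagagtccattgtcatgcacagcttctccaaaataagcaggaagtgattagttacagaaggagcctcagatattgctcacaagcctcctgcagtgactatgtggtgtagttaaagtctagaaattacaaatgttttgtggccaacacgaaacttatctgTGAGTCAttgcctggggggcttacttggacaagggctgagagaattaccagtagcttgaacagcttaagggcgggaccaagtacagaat

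LINC02226 promoter, chr5:8457515-8457814, minus strand: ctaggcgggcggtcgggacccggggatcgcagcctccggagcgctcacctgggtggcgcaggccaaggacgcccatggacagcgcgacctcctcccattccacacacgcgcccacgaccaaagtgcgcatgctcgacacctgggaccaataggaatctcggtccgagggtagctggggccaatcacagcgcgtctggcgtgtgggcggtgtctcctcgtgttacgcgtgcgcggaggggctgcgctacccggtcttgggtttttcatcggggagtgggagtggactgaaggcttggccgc

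LOC107986387 promoter, chr5:89487420-89487719, plus strand: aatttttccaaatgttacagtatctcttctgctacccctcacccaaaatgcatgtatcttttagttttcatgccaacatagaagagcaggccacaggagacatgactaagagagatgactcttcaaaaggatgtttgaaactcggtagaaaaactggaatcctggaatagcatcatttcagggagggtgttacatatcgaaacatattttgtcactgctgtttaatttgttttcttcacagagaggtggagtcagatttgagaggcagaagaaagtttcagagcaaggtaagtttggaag

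LINC00314 promoter, chr21:28013113-28013412, plus strand: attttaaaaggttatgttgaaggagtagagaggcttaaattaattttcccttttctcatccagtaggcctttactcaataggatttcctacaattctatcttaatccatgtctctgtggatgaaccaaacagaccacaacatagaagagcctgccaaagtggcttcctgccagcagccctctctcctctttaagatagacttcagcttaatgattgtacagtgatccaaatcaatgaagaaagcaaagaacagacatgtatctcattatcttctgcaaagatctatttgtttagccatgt

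The LOC124900845 window lay under the region chr4:32140502-32141127, in the desert between PCDH7, a protocadherin, and ARAP2, a GTPase-activating protein. Fold enrichment, the authors' value for a peak over its local background and used here only to rank peaks within a list, was 18.2 in the combination, 16.7 in belinostat, 21.4 in AsiDNA and 19.7 in vehicle, at or above percentile 97.1 of each list. The LINC02226 window is 67.3% G and C and overlaps the window of MIR4458HG, which is transcribed the other way. Both windows share a region of 1109 bp with folds of 18.3 in the combination, 19.9 in belinostat, 12.9 in AsiDNA and 9.65 in vehicle. LOC107986387, between MEF2C and CETN3, had folds of 4.9 in AsiDNA and 7.8 in vehicle and no peak in either belinostat list. LINC00314 had a fold of 6.49 in belinostat and no peak in any other list.

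Of the 47 windows with a region, 30 were open in all lists (51.3% of all regions were), 3 only without belinostat (5.06%) and 4 in the belinostat list alone (6.73%). The 47 windows lay over only 39 regions, so some regions were counted more than once. Their counts are therefore not directly comparable with the shares of regions in parentheses. No window had the pattern of a peak in both belinostat lists and in no other, which 6.05% of all regions had, and 47 windows are too few to read that 0 as a difference. The median G and C content was 45.3% in desert windows with a region, 38.7% in the 594 desert windows without, and 58.7% over all 33725 windows of the table. TGANTCA occurred in 10 of the 47 windows with a region (21.3%), in 12.5% of those without and in 7.67% of all windows. Some windows overlap others of the same gene, the count is small, and the difference was not tested. Of the palindrome TGACGTCA, the site of CREB and ATF factors, no copy was found in the windows with a region. It occurred in 0.337% of the desert windows without a region and in 1.87% of all windows. With a sequence this rare, 47 windows are too few to read its absence as a difference. These matches describe letters in a window and say nothing of a bound factor.

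Deserts held 32 miRNA hairpins, and 4 of them had a region within 1 kb. MIR5583-1 and MIR5583-2 are read from opposite strands of the same sequence on chromosome 18 and give the same mature miRNAs. The region 548 bp from them was open in all lists, with folds of 7.62 in the combination, 8.11 in belinostat, 14.8 in AsiDNA and 13.5 in vehicle. MIR6724-4 lies inside a region of the ribosomal RNA genes on chromosome 21, described below, and MIR10396B lies 755 bp from another. The mature sequences of MIR5583 and MIR6724-4 are printed because desert regions came closest to these miRNAs, and capitals mark the seed, bases 2 to 8. The seeds differ among the 3 sequences.

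hsa-miR-5583-3p: gAAUAUGGguauauuaguuugg

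hsa-miR-5583-5p: aAACUAAUauacccauauucug

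hsa-miR-6724-5p: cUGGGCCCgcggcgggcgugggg

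Arm deserts held fewer regions per length than the rest of the genome. For centromeric deserts the comparison depends on how much of their length is uncalled sequence. Counting all sequence between the outermost peaks or genes, uncalled bases included, centromeric deserts had 48.1 regions per Mb over 113 Mb, arm deserts 18.2 per Mb over 215 Mb, and sequence elsewhere 68.6 per Mb over 2481 Mb. Deserts of both kinds together had 28.5 regions per Mb, 0.416 times the density elsewhere (0.407 to 0.424). The centromeric length includes single stretches without any region of 18001 kb on chromosome 1, 14897 kb on chromosome 9 and 7799 kb on chromosome 16. How much of them is uncalled was not determined. Whether centromeric deserts are sparser than the rest of the genome is therefore not settled. Every centromeric desert held at least 1 region, whereas 65 of the 281 arm deserts held none. Of 76 arm deserts that extended over at least 1 Mb, 8 were empty in all lists. The longest of these was 2197 kb between GBE1, the glycogen branching enzyme, and CADM2, a neuronal adhesion molecule. The next was 1913 kb between GOT2, a mitochondrial aminotransferase, and CDH8, a cadherin.

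Desert regions were shared by fewer treatments than regions elsewhere. All lists held 35.2% of desert regions (34.3 to 36.2), against 51.3% of all regions. The share was 27.3% in centromeric deserts (26.2 to 28.5), 46.2% in arm deserts (44.6 to 47.8) and 52.2% elsewhere (52 to 52.4). Regions held by a single list made up 40.1% in centromeric deserts, 25.2% in arm deserts and 22.1% elsewhere.

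**Figure D1:**
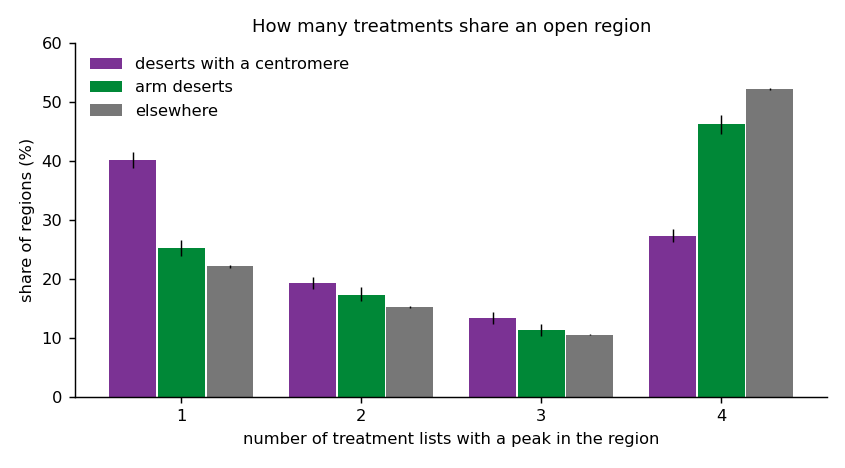
Share of regions (vertical axis, percent) by the number of treatment lists with a peak in the region (horizontal axis), for centromeric deserts (5440 regions), arm deserts (3906) and elsewhere (170299). Bars start at 0 and error bars are Wilson 95% intervals. Regions of a single list were the most frequent class in centromeric deserts (40.1%), and regions of all lists were the most frequent in arm deserts (46.2%) and elsewhere (52.2%).

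Peaks in centromeric deserts were weak within their lists. Their median percentile of fold enrichment was 14.9 in the combination, 18.6 in belinostat, 17.1 in AsiDNA and 17.3 in vehicle. Arm-desert peaks had medians of 51.4, 51.1, 54.9 and 55 in the same lists, beside 50.8, 50.6, 50.9 and 50.9 elsewhere. The strongest peaks of any desert were nevertheless centromeric. The 6 regions with the highest ranks in all lists lay in the desert between KCNJ18, a potassium channel, and WSB1, a ubiquitin ligase subunit, on chromosome 17. The first of them, chr17:22521210-22521592, had folds of 48.4 in the combination, 48.8 in belinostat, 48.6 in AsiDNA and 49.1 in vehicle. It lies 500 bp beyond the annotated end of MTCYBP13, a pseudogene copied from the mitochondrial cytochrome b gene.

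Desert regions had a median width of 395 bp (quartiles 265 and 633), against 437 bp elsewhere (299 and 621). In centromeric deserts the spread was wider, with 15.7% of regions at 1000 bp or more, against 2.97% in arm deserts and 7.34% elsewhere. Regions open in all lists had a median of 907 bp in centromeric deserts, 524 bp in arm deserts and 586 bp elsewhere. The widest desert region, chr1:122667208-122672984, extended over 5777 bp, of which the combination covered 4994 bp, belinostat 5403 bp, AsiDNA 4856 bp and vehicle 5246 bp. The next widest, chr5:49656760-49661836, had 5054 bp covered in the combination, 5061 bp in belinostat, 5067 bp in AsiDNA and 5077 bp in vehicle. Single-list regions were narrow everywhere, with medians of 257 bp in centromeric deserts, 235 bp in arm deserts and 237 bp elsewhere.

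Among the 1487 centromeric regions open in all lists, peaks covered less in belinostat than in vehicle in 62.3% and more in 36.8%, with a median ratio of 0.959. The same ratio was 1.01 in the 1804 shared arm-desert regions and 1.01 elsewhere. Combination over AsiDNA gave median width ratios of 0.992 in centromeric deserts, 0.959 in arm deserts and 0.958 elsewhere.

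Most desert regions had a close neighbour. With a gap of at most 10 kb, 92.2% of centromeric regions (91.5 to 92.9) and 65.8% of arm-desert regions (64.3 to 67.3) fell in clusters, against 85.1% of regions elsewhere. The largest cluster, chr1:122503384-124794054, held 1047 regions over 2291 kb, of which 691 were open in all lists. Peaks of the combination lay in 822 of them, of belinostat in 808, of AsiDNA in 910 and of vehicle in 911. The second, chr9:43459583-44621392, held 452 regions, but only 59 of these were open in all lists and 203 were in a single list. The desert it lies in had 10.6% of its 726 regions in all lists, while the chromosome 1 desert had 65.3% of 1126.

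The largest cluster of the arm deserts, chr21:8376444-8471990, was a group of 41 regions over 95.5 kb. It covers copies of the ribosomal RNA genes, RNA45SN1 and RNA28SN1 among them. Of its regions, 25 were open in all lists. The region over an end of RNA45SN1 and over MIR6724-4 was 2577 bp wide, with folds of 2.6 in the combination, 2.66 in belinostat, 2.22 in AsiDNA and 2.39 in vehicle. Such folds rank low in each list although the deposited −log10 q reached 111 in the combination, 102 in belinostat, 55 in AsiDNA and 69.8 in vehicle. These genes occur in many near-identical copies, so the placement of their reads is uncertain, as it is for satellite repeats.

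Some stretches that the rule calls deserts are not empty of genes. Immunoglobulin segments have gene types of their own in the gene table, so the IGH locus on chromosome 14, with 174 segments, and the IGK locus on chromosome 2, with 82, counted in part as deserts. IGH held 32 desert regions and IGK held 30. These loci are the noncoding entries that desert regions overlapped most often. Long noncoding RNA genes overlapped 27.5% of arm-desert regions (26.1 to 28.9) and 0.368% of centromeric ones. LINC00299, beside ID2, had 26 regions and MIR99AHG, the host gene of miR-99a and let-7c, had 22.

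Regions open only without belinostat outnumbered those open only with it in deserts, while over the rest of the genome as a whole they were fewer. A region was called belinostat-only when the combination and belinostat lists had a peak in it and neither other list did, and without-belinostat-only when only the AsiDNA and vehicle lists did. The 2 list pairs behind each pattern share no list. Deserts held 257 belinostat-only regions (2.75% of desert regions, against 6.05% of all regions) and 646 without-belinostat-only regions (6.91%, against 5.06%), a ratio of 0.398 (0.344 to 0.46). The ratio was 0.19 in centromeric deserts (71 and 374 regions, 0.147 to 0.245), 0.684 in arm deserts (186 and 272, 0.568 to 0.824) and 1.26 elsewhere (10618 and 8449, 1.22 to 1.29). The interval of arm deserts did not reach that of the rest of the genome, and each lay on its own side of 1. Parts of the rest of the genome also had a ratio below 1, among them its strongest regions and those farther than 100 kb from a gene. The split of neither drug was lower in deserts too, at 0.605 in centromeric deserts (0.479 to 0.765) and 1.44 in arm deserts (0.98 to 2.12), against 2.09 elsewhere (1.95 to 2.25).

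Along the distance from coding genes, with gaps that hold a centromere left out, the ratio of belinostat-only to without-belinostat-only regions was highest just outside genes and lowest in the deepest desert. It was 1.87 within 10 kb of a gene (1.71 to 2.04), 0.962 at 250 to 500 kb (0.835 to 1.11), 0.818 at 500 to 750 kb (0.643 to 1.04), 0.621 at 750 kb to 1 Mb (0.411 to 0.938) and 0.439 at 1 Mb or more (0.285 to 0.678). At 1 Mb or more these were 29 belinostat-only regions and 66 without-belinostat-only regions. Outside deserts, at 100 to 250 kb, the belinostat ratio was 0.964 (0.871 to 1.07). The split that follows neither drug, single drugs only over combination and vehicle only, gave 2.17 within 10 kb, 2.12 at 250 to 500 kb, 1.48 at 500 to 750 kb (0.914 to 2.4), 0.7 at 750 kb to 1 Mb (7 and 10 regions, 0.276 to 1.78) and 2.5 at 1 Mb or more (15 and 6 regions, 1 to 6.24). The AsiDNA ratio was 1.01 within 10 kb, 1.86 at 250 to 500 kb, 1.18 at 500 to 750 kb, 0.667 at 750 kb to 1 Mb (0.326 to 1.36) and 0.769 at 1 Mb or more (0.345 to 1.72). Within deserts the intervals of the 3 splits overlapped up to 1 Mb, and beyond 1 Mb that of the belinostat split lay below that of neither drug and overlapped that of AsiDNA. The share of regions open in all lists was 50.6% within 10 kb and 45% at 1 Mb or more.

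**Figure D2:**
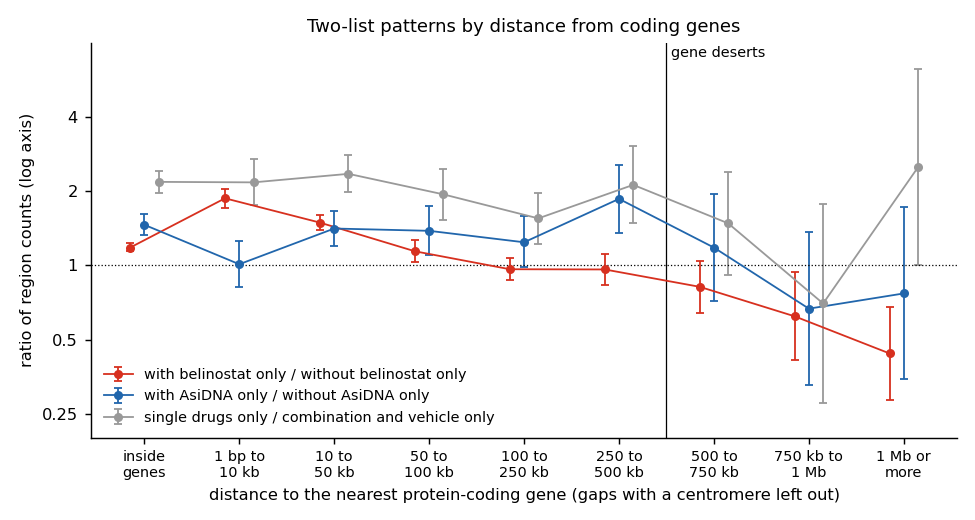
Ratio of region counts (vertical log axis) by distance to the nearest protein-coding gene (horizontal axis) for 3 splits of the lists, with gaps that hold a centromere left out. Points are ratios, bars are 95% intervals of counting error, the dotted line is a ratio of 1 and the vertical line marks the 500 kb border of deserts. In the 3 desert bands the belinostat ratio is 0.818, 0.621 and 0.439, the AsiDNA ratio 1.18, 0.667 and 0.769 and the ratio of neither drug 1.48, 0.7 and 2.5, the last 2 splits with wide intervals.

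The lean away from belinostat held in each centromeric desert that could show it and in more arm deserts than showed the reverse. In the 20 centromeric deserts with any region of either pattern, without-belinostat-only regions were the more numerous in all 20. Among arm deserts they were more numerous in 76, less numerous in 49 and equal in 16. Leaving out any 1 arm desert moved the arm ratio to between 0.649 and 0.703, the higher value without the desert from PCDH7 to ARAP2. Counting every region a list held, belinostat had 2415 centromeric regions, against 3606 for vehicle, and held fewer than vehicle in 20 of 22 deserts and more in none. The combination had 2829 centromeric regions, against 3548 for AsiDNA, and held fewer in 21 of 22 and more only in the chromosome 12 desert (98 against 77). In arm deserts the totals were close, with 2609 regions in the combination, 2676 in belinostat, 2863 in AsiDNA and 2727 in vehicle.

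**Figure D3:**
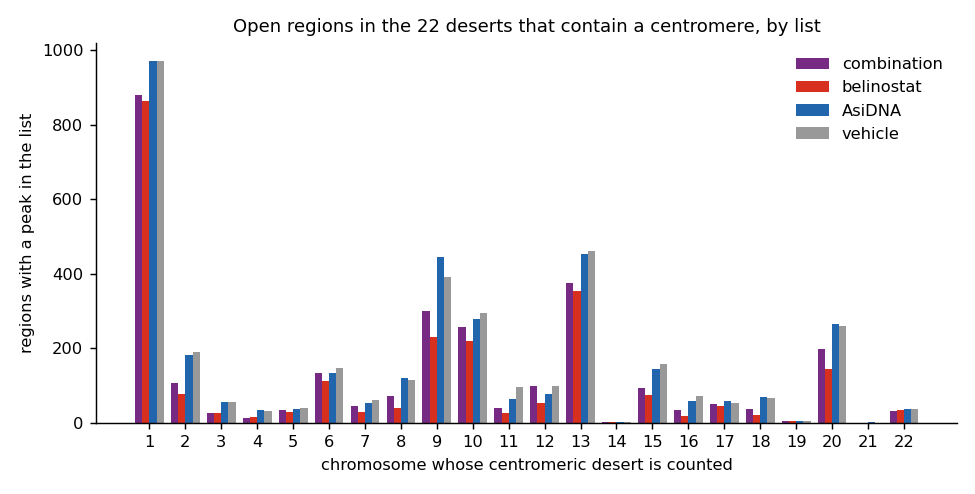
Number of regions with a peak (vertical axis, from 0) in each treatment list for the 22 centromeric deserts, by chromosome (horizontal axis). The belinostat bar is lower than the vehicle bar in 20 of 22 deserts. Counts run from 863 in belinostat, against 971 in vehicle, on chromosome 1 to single-digit counts on chromosomes 14, 19 and 21.

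The size of the centromeric difference varied widely among the chromosomes, leaving aside 14, 19 and 21, with 4, 7 and 1 regions. Chromosome 16 had 18 regions in belinostat, against 71 in vehicle (ratio 0.254). Chromosome 11 had 27, against 95 (0.284), and chromosome 18 had 22, against 67 (0.328). Chromosomes 1, 17 and 22 stood at the other end, with ratios of 0.889, 0.885 and 0.972. The combination over AsiDNA ratio was 0.569 on chromosome 16, 0.609 on 11, 0.529 on 18, 0.904 on 1, 0.862 on 17 and 0.865 on 22. These 6 were named for the first pair of lists, and in the second, which shares no list with it, the lowest ratios were on chromosomes 4 (0.4, beside 0.469 in the first) and 3 (0.455 in both). Over all centromeric deserts the ratios were 0.67 and 0.797. Chromosomes 7 and 12 differed between the pairs, with 0.452 and 0.551 for belinostat over vehicle but 0.885 and 1.27 for the combination over AsiDNA.

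Because centromeric peaks were weak, the patterns were also set out by strength, as the mean percentile of a region over the lists that held it. In centromeric deserts the belinostat ratio was 0.286 below percentile 10, 0.133 from 10 to 25 and 0.113 from 25 to 50, the last with 6 and 53 regions. Above percentile 50, 94.1% of centromeric regions were open in all lists and the patterns held 1 and 0 regions. In arm deserts the ratio was 1.07 below percentile 10 and from 10 to 25, 0.662 from 25 to 50 (0.504 to 0.868) and 0.319 above 50 (0.198 to 0.513), the last with 22 belinostat-only and 69 without-belinostat-only regions. Elsewhere it was 1.47 below percentile 10 and 0.819 above 50 (0.756 to 0.887). In each strength class the arm deserts had a lower ratio than the rest of the genome, and in the classes above percentile 25 the intervals did not overlap.

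**Figure D4:**
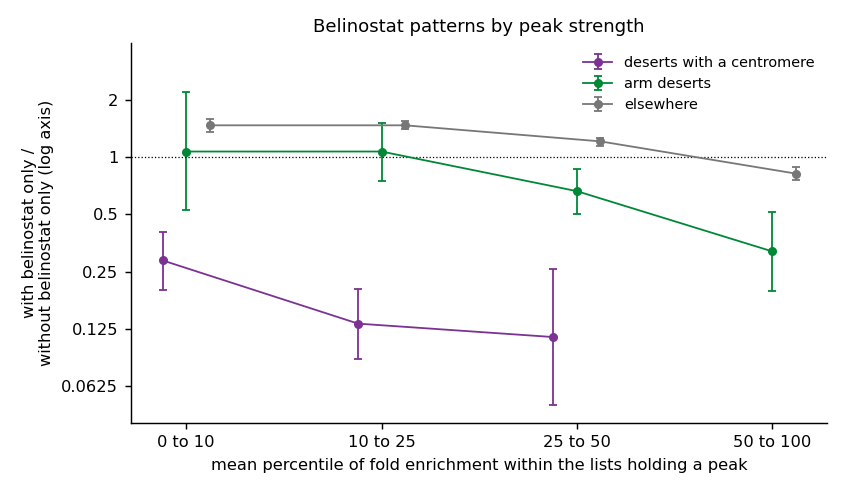
Ratio of belinostat-only to without-belinostat-only regions (vertical log axis) by the mean percentile of fold enrichment within the lists that held the region (horizontal axis), for centromeric deserts, arm deserts and elsewhere. Bars are 95% intervals of counting error. Above percentile 50 the ratio is 0.319 in arm deserts and 0.819 elsewhere, and no ratio is drawn for centromeric deserts there because 1 region of these patterns remained.

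Between belinostat and vehicle, belinostat over vehicle gained 1146 desert regions (12.3%, against 17.8% of all regions) and lost 2388 (25.6%, against 13.2%). The combination over AsiDNA gained 1217 (13%, against 13.3%) and lost 2190 (23.4%, against 15.5%). In arm deserts the gains and losses were 636 and 687 for belinostat over vehicle, a ratio of 0.926 (0.831 to 1.03), and 487 and 741 for the combination over AsiDNA, a ratio of 0.657 (0.586 to 0.737). Elsewhere these ratios were 1.45 and 0.881. The combination over vehicle, which shares the vehicle list with the first pair, gained 1287 desert regions (13.8%, against 15.3%) and lost 2182 (23.3%, against 13%).

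The AsiDNA patterns were smaller and leaned less. AsiDNA over vehicle gained 1701 desert regions (18.2%, against 13.1% of all regions) and lost 1623 (17.4%, against 8.5%). The combination over belinostat gained 1498 (16%, against 8.98%) and lost 1151 (12.3%, against 11.3%). Regions with a peak in both AsiDNA lists only numbered 230 (2.46%, against 1.23%), and those in both lists without AsiDNA only numbered 189 (2.02%, against 0.895%), a ratio of 1.22 (1 to 1.47). The ratio was 1.35 in centromeric deserts (1.07 to 1.69), where it was 1.19 without the chromosome 9 desert, 0.932 in arm deserts (0.647 to 1.34) and 1.4 elsewhere (1.3 to 1.49). With all lists cut to the same length the desert ratio was 0.914 (0.731 to 1.14). For scale, the split of neither drug held 174 desert regions in the single-drug lists only (1.86%, against 1.38%) and 228 in the combination and vehicle lists only (2.44%, against 0.742%).

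Regions of a single list in deserts numbered 570 in the combination (6.1%, against 4.37% of all regions), 485 in belinostat (5.19%, against 6.73%), 1067 in AsiDNA (11.4%, against 6.8%) and 1044 in vehicle (11.2%, against 4.77%). Missing from a single list were 303 for the combination (3.24%, against 2.26%), 470 for belinostat (5.03%, against 2.64%), 162 for AsiDNA (1.73%, against 2.09%) and 230 for vehicle (2.46%, against 3.65%).

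The strongest belinostat-only region of the deserts, chr17:53106131-53106394, overlaps MTCO1P40, a pseudogene copied from the mitochondrial gene for cytochrome oxidase subunit 1, 717 kb from KIF2B, a kinesin of the spindle. It had folds of 20.8 in the combination and 22.7 in belinostat and no peak in AsiDNA or vehicle. Only 1 of 3906 arm-desert regions, 1 of 5440 centromeric regions and 17 of 170299 regions elsewhere lay within 1 kb of such a mitochondrial pseudogene. The pattern was not particular to deserts. Outside them, chr5:134927005-134927215, over MTND4P12, was also belinostat-only, with folds of 24.1 in the combination and 23.4 in belinostat. Many of the other regions near such pseudogenes were open in all lists. Whether reads of mitochondrial DNA contributed to these peaks was not tested. The next was chr16:64428469-64428779, 515 kb from CDH11, a cadherin of mesenchymal cells, with folds of 9.5 in the combination and 8.34 in belinostat. A region 707 kb from KCNV1, a modifier subunit of potassium channels, had folds of 8.46 and 11.5 in the same lists. Near EFNA5, an ephrin ligand that guides axons, chr5:106289048-106289343 had 7.68 and 7.36.

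Of the strongest without-belinostat-only regions, the first, chr6:140258198-140258628, lies 884 kb from CITED2, a transcriptional coactivator, and had folds of 10.7 in AsiDNA and 10.4 in vehicle, with no peak in the combination or in belinostat. The others were chr13:82878627-82878935, 998 kb from SLITRK1, a neuronal transmembrane protein (10.7 in AsiDNA and 9.46 in vehicle), chr4:33025321-33025654, 1879 kb from PCDH7 (11.4 and 8.04), and chr18:29488607-29488882, 1311 kb from CDH2, which encodes N-cadherin (9.11 and 8.04). Among regions missing from the belinostat list alone, the strongest was chr17:26625422-26625781 in the chromosome 17 centromeric desert, with folds of 17.1 in the combination, 18.2 in AsiDNA and 15.2 in vehicle.

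Several of the arm deserts with most regions border regulators or adhesion genes, but others, such as that from OTOL1 to SI with 61 regions, border neither. The desert from ZEB2, a zinc-finger repressor of epithelial genes, to ACVR2A, an activin receptor, held 122 regions over 2324 kb, or 52.5 per Mb, and 55 of them were open in all lists. Peaks of the combination lay in 79 of these regions and of belinostat in 76, against 99 for AsiDNA and 92 for vehicle. Its patterns were 6 belinostat-only and 15 without-belinostat-only regions. The desert from PCDH7 to ARAP2 held 75 regions over 3859 kb, with 1 belinostat-only and 9 without-belinostat-only regions. The desert from RNF144A to ID2, an inhibitor of basic helix-loop-helix factors, ran the other way, with 6 belinostat-only and 3 without-belinostat-only regions among 57. There the combination held 36 and belinostat 39, against 31 for AsiDNA and 26 for vehicle.

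**Figure D5:**
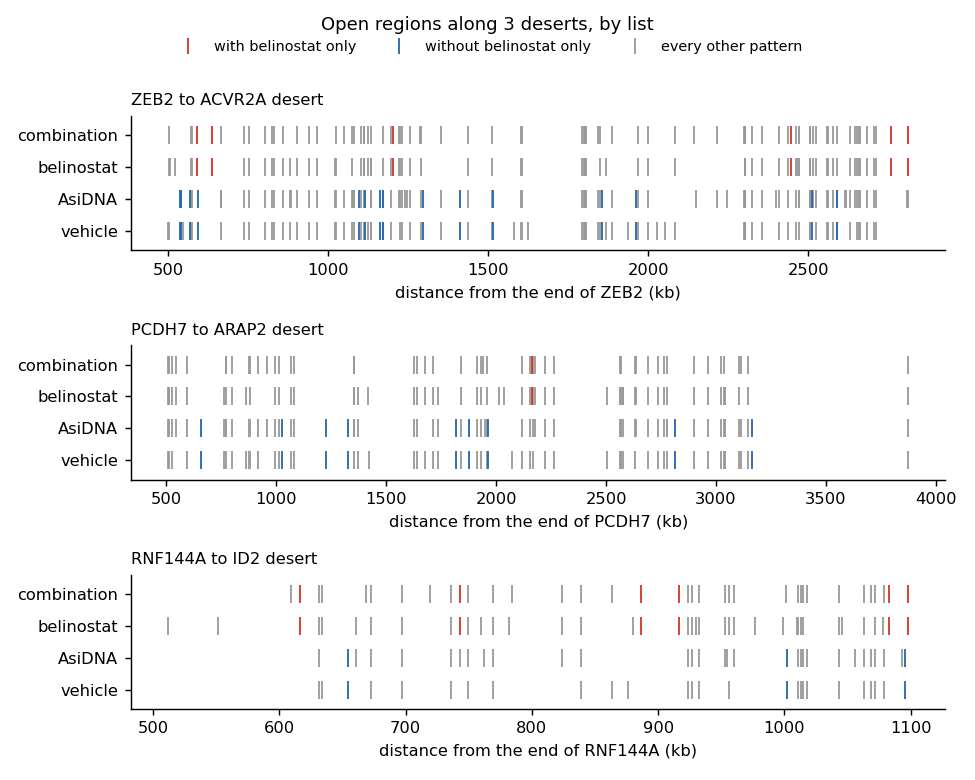
Positions of open regions along 3 arm deserts, as distance in kb from the end of the coding gene at the left border (horizontal axis), in the combination, belinostat, AsiDNA and vehicle lists (rows). Each tick is a region with a peak in that list, red for regions in both belinostat lists only, blue for regions in both lists without belinostat only and grey for every other pattern. Regions marked blue outnumber those marked red in the deserts from ZEB2 to ACVR2A (15 and 6) and from PCDH7 to ARAP2 (9 and 1), and red outnumber blue from RNF144A to ID2 (6 and 3).

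Grouped by the nearest coding gene, 23 of 81 listed transcription regulators had desert regions, 399 in all. Of these, 199 were open in all lists, 22 were belinostat-only and 37 without-belinostat-only. ZEB2 led with 65 regions (3 belinostat-only and 11 without-belinostat-only), followed by MYC with 51 (4 and 5), ID2 with 36 (4 and 2), NR2F1, an orphan nuclear receptor, with 32 (2 and 2) and SOX9, a regulator of cartilage and glia, with 32 (2 and 0). Of 62 adhesion genes, 34 had desert regions, 548 in all, with 27 belinostat-only and 39 without-belinostat-only. PCDH7 had 52 regions (1 and 7), TENM3, a teneurin, 50 (3 and 3), PCDH9 50 (1 and 3), and SLITRK1 46 (2 and 7). Of 47 guidance and signalling genes, 16 had desert regions, 189 in all, with 4 and 11 of these patterns. EPHA3, an ephrin receptor at the border of the chromosome 3 centromeric desert, had 79 of them (0 and 7), and EFNA5 had 49 (2 and 1). Of 41 receptors and channels, 9 had desert regions, 78 in all, with 3 and 6. Over all arm deserts the numbers were 186 and 272, and no list was tested against them. A nearest gene is a landmark here, and no value shows that a region acts on it.

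The regions farthest from any coding gene lay on the short arm of chromosome 22, up to 4878 kb from OR11H1, an olfactory receptor. The farthest in an arm desert, chr4:33649064-33649343, lay 2356 kb from ARAP2 and had a peak in belinostat and vehicle only. The strongest of the 5 farthest arm regions, chr4:33715937-33716501, had folds of 14.5 in the combination, 16 in belinostat, 14.5 in AsiDNA and 12.1 in vehicle, at or above percentile 93.1 of each list. At the 500 kb border, the nearest regions counted as desert lay 500076, 500112 and 500160 bp from a coding gene, and the nearest left out lay at 499993, 499932 and 499885 bp.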

How the data were processed

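NicE-seq libraries of U87 cells were grouped by the treatment field of the labels. The submitters' processing notes name MACS2, Bowtie2, Picard, SAMtools, deepTools and Trim Galore (version 0.5.0) and the build hg38. Not given in the sources used here were their options, any control input or blacklist, the handling of reads with several placements and the pooling of libraries. For each peak the authors deposited a fold enrichment (a ratio to background) and a −log10 q-value of at least 1.3. Folds were turned into percentiles within a list and not compared as levels between lists.

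Distances were taken to 18969 protein-coding genes of the RefSeq GRCh38.p14 table, the build of the files. Another 153 coding entries that break the table's order along a chromosome were taken to lie on other scaffolds and left out. Gaps between coding genes that held a centromere or came within 1 Mb of it, placed to the nearest Mb from general knowledge of hg38, were counted as centromeric, and all 22 so counted held the placed position. This division, the distance bands, the strength classes and the selections among arm deserts were made after the data were seen. Members, gene lists and comparisons were chosen with earlier results of these data known. Regions named were the strongest per pattern by the lowest within-list percentile, the widest, the farthest, and the clusters, deserts and noncoding genes with most regions. Searches at peak summits and removal of uncalled bases, which the design called for, were not run because no genome sequence was used. The merging and pattern functions recovered 100% of 20000 simulated regions. These were spaced so that neighbours could not merge, with at most a single peak per list, so crowded or split peaks were not tested. Promoter windows on chromosome 8 were not used here, and 1 of the deserts with most regions is not reported here. Scripts ran in Python 3.11.15 with scipy 1.17.1, pandas 2.3.3, matplotlib 3.10.9 and numpy 2.4.6. Alternatives varied the peak threshold, list length, overlap, distance, genes, chromosomes and cluster gap.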

Additional observations from a re-analysis of the deposited data

How the results depend on the processing

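Each of the 7 summary results was recomputed under 11 other settings, and the clustered share under 2 more. The ratio of belinostat-only to without-belinostat-only desert regions stayed below 1 in all of them. With peaks at −log10 q of 5 or more it was 0.479, the share open in all lists was 43%, the median width 435 bp, the clustered share 73.7% and the density over that elsewhere 0.335. With lists of equal length, these values were 0.335, 36.4%, 404 bp, 79.1% and 0.398, and the AsiDNA ratio turned to 0.914. With a margin between present and absent, they were 0.5, 57%, 442 bp, 67.1% and 0.295 over 4858 regions. Requiring an overlap of 50% of the shorter peak gave 34.2% open in all lists and 82% clustered. At 250 kb from coding genes there were 15918 regions, with a ratio of 0.612, 39.5% open in all lists, 78.3% clustered and a density of 0.401. At 1000 kb there were 5342, with 0.215, 30.4%, 87.1% and 0.545. At 500 kb from a gene of any type there were 4390, with 0.162, 27.5%, 93% and 0.768, and a median width of 404 bp. Without peaks narrower than 250 bp the ratio was 0.497, the width 475 bp, the clustered share 76.9% and the density 0.385. Chosen after seeing the data, leaving out deserts with a centromere gave 3906 regions, a ratio of 0.684, 46.2% open in all lists, a width of 388 bp, 65.8% clustered, a density of 0.265 and an AsiDNA ratio turned to 0.932. Keeping gene entries of other scaffolds, also chosen later, moved the density to 0.355. Cluster gaps of 5 and 50 kb gave 68.6% and 96%. The cause of these shifts was not tested.

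No paired analysis was possible because each group has 1 peak list that stands for all its libraries. Depth per library is unknown, so a peak missing from a list can be a peak under the threshold. How reads from repeated sequence were placed is not known.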

Other observations

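Chromosome X was not part of the counts above. It held 71 regions by the same rule, of which 28 were open in all lists. Peaks of the combination lay in 41 of them and of belinostat in 43, against 50 for AsiDNA and 54 for vehicle. Belinostat-only regions numbered 1 and without-belinostat-only regions 5. Among the desert regions counted above these patterns made up 2.75% and 6.91%, and among all regions counted above 6.05% and 5.06%. Counts this small do not set chromosome X apart from the other deserts.

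The host gene of miR-99a and let-7c, MIR99AHG, lies in the desert between USP25 and CXADR on chromosome 21 and had 22 regions, with 10 open in all lists, none belinostat-only and 4 without-belinostat-only. The region nearest to both hairpins, 1734 bp from MIR99A, had a peak in belinostat (fold 2.31), AsiDNA (3.05) and vehicle (3.36) and none in the combination. In the IGH locus the patterns were 0 belinostat-only and 5 without-belinostat-only regions, and in the IGK locus 1 and 0, of 32 and 30 regions. These patterns made up 4.76% and 6.96% of arm-desert regions, and counts this small do not set the loci apart.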
